A study of Mus musculus with 2 samples.

Results

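The genes described here are 42 components of the Wnt cascade that act inside the cell, together with planar polarity genes and Porcn, a gene of Wnt secretion. They were chosen by name for their known role, as the rows with these gene symbols among the 37309 rows of the table of all genes, and each symbol matched 1 row. Intestinal subepithelial myofibroblasts (ISEMFs), the contractile stromal cells that lie beneath the crypts, were grown in culture from the small intestine of wild type C57BL/6 mice. The RNA sequencing compared supportive ISEMFs, grown from 5-day-old neonates, with non-supportive ISEMFs, grown from adults aged 2 months, with 1 library each. All cells were expanded in medium with serum, insulin, transferrin and EGF, and no library was replicated. The deposited names carry the suffix P16 for the supportive and P3 for the non-supportive cells, which the sources used here do not define, and they give neither the number of mice nor the culture passage behind a library. The population, the age of the mice, the passage and any difference between the isolations therefore cannot be told apart, and no difference given here has a replicate check.

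Without a Wnt ligand, a complex of the scaffolds Axin and APC with the kinases GSK3 and casein kinase 1 marks β-catenin for destruction. When a ligand binds its receptors, Dishevelled proteins recruit Axin to the membrane, β-catenin accumulates, and in the nucleus it joins TCF and LEF factors to switch on target genes. In the planar polarity branch, Dishevelled acts with Vangl, Prickle and Celsr proteins on the cytoskeleton and not through β-catenin. In the gut this cascade is best known for maintaining the stem cells of the crypt, and stromal cells carry the same machinery.

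Gene counts summed to 50674472 for supportive and 49615497 for non-supportive ISEMFs, of which the 42 genes took 0.370% and 0.369%. Pairs of values are given in this order, supportive first. Levels are given as the deposited RPKM, the reads of a gene per kilobase of its exons and scaled to library size. A ratio is the RPKM in supportive over that in non-supportive ISEMFs, and its 95% exact Clopper-Pearson interval was computed from the reads. These intervals cover counting error only and compare the libraries, not the populations. Mitochondrial ribosomal RNA took 13.5% of gene reads (supportive library) and 7.13% (non-supportive library). The myofibroblast genes Acta2, Vim, Tagln and Myl9 were abundant in both libraries, with RPKM values of 908 and 1410 for Acta2, while Des was at 0.575 and 3.40. Of 8 epithelial markers, Epcam, Krt8, Krt18 and Cdx2 had no reads in the supportive library and at most 19 in the other, and Vil1 had 7 and 8. The other epithelial markers went both ways, with 159 and 18 reads for Cdh1, 1 and 93 for Krt19 and 6702 and 4 for Lgr5. Of 7 macrophage markers, 6 reached an RPKM of 1, and all 6 were more than 2-fold lower in supportive ISEMFs. Over all genes that reached it, 9.01% were 2-fold higher and 9.27% were 2-fold lower. Only Lyz2 reached it in both libraries. The others reached it only in the non-supportive library, so they had to be lower in supportive ISEMFs and their count lends no support to a difference. The summed RPKM of the 7 was 6.86 (supportive library) and 121 (non-supportive library), and Ptprc, Tyrobp and Emr1 had no reads in the former. Of 6 fibroblast markers, 4 were more than 2-fold higher and Pdgfra was more than 2-fold lower in supportive ISEMFs, with a summed RPKM of 1015 against 421. Of 4 smooth muscle markers, Myh11 and Cnn1 were more than 2-fold lower, Actg2 was at 247 and 292, and Smtn was higher at 4.88 and 3.16. Their summed RPKM was 357 against 590. Among markers of glia, interstitial cells of Cajal and endothelium, S100b had 709 and 12 reads, Ano1 had 12 and 1005, Kdr had 2 and 88, and Tek had 65 and 2, whereas Sox10 had none and Kit, Pecam1 and Cdh5 at most 8. The part of these genes' cell types in the differences that follow was not tested, and in such bulk libraries fewer cells of a type and less RNA per cell cannot be told apart.

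All 5 genes listed under the β-catenin destruction complex that reached an RPKM of 1 differed by less than 1.5-fold between the libraries. At that level the casein kinases, ubiquitin ligase adaptors, Dishevelled genes, coactivators and planar polarity genes held no gene past 2-fold either. The destruction complex is therefore not set apart by this. Of the 42 genes, 31 reached an RPKM of 1 in either library. Among these, Tle2, Dact1 and Tcf7l1 were at least 2-fold higher in supportive ISEMFs on the scale of RPKM plus 0.1, and 0 were 2-fold lower. Tle2 and Dact1 passed the minimum only in the supportive library. Over all 10086 genes at such levels, the same rule counted 9.01% as higher, 9.27% as lower and 18.3% as either, so 3 of 31 genes higher (9.68%) is near that background. The median log2 ratio of the 31 genes was -0.12, against -0.07 for all genes. Their median absolute log2 ratio was 0.35 against 0.42, and 23 of the 31 (74.2%) differed by less than 1.5-fold, against 63.9% of all genes.

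Below an RPKM of 1, a further 8 of the 42 genes had at least 50 reads over both libraries. Of these, Nkd1 was more than 2-fold higher and Nkd2 and Pygo1 were more than 2-fold lower in supportive ISEMFs. Among all 3564 genes at such levels, 9.76% were higher, 12.0% lower and 21.8% either by the same rule. With a pseudocount of 1 in place of 0.1, none of these 3 genes reached 2-fold. The remaining 3 genes, Axin2, Frat1 and Celsr1, had 10 reads or fewer. The plot of levels shows each gene in both libraries.

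**Figure D1:**
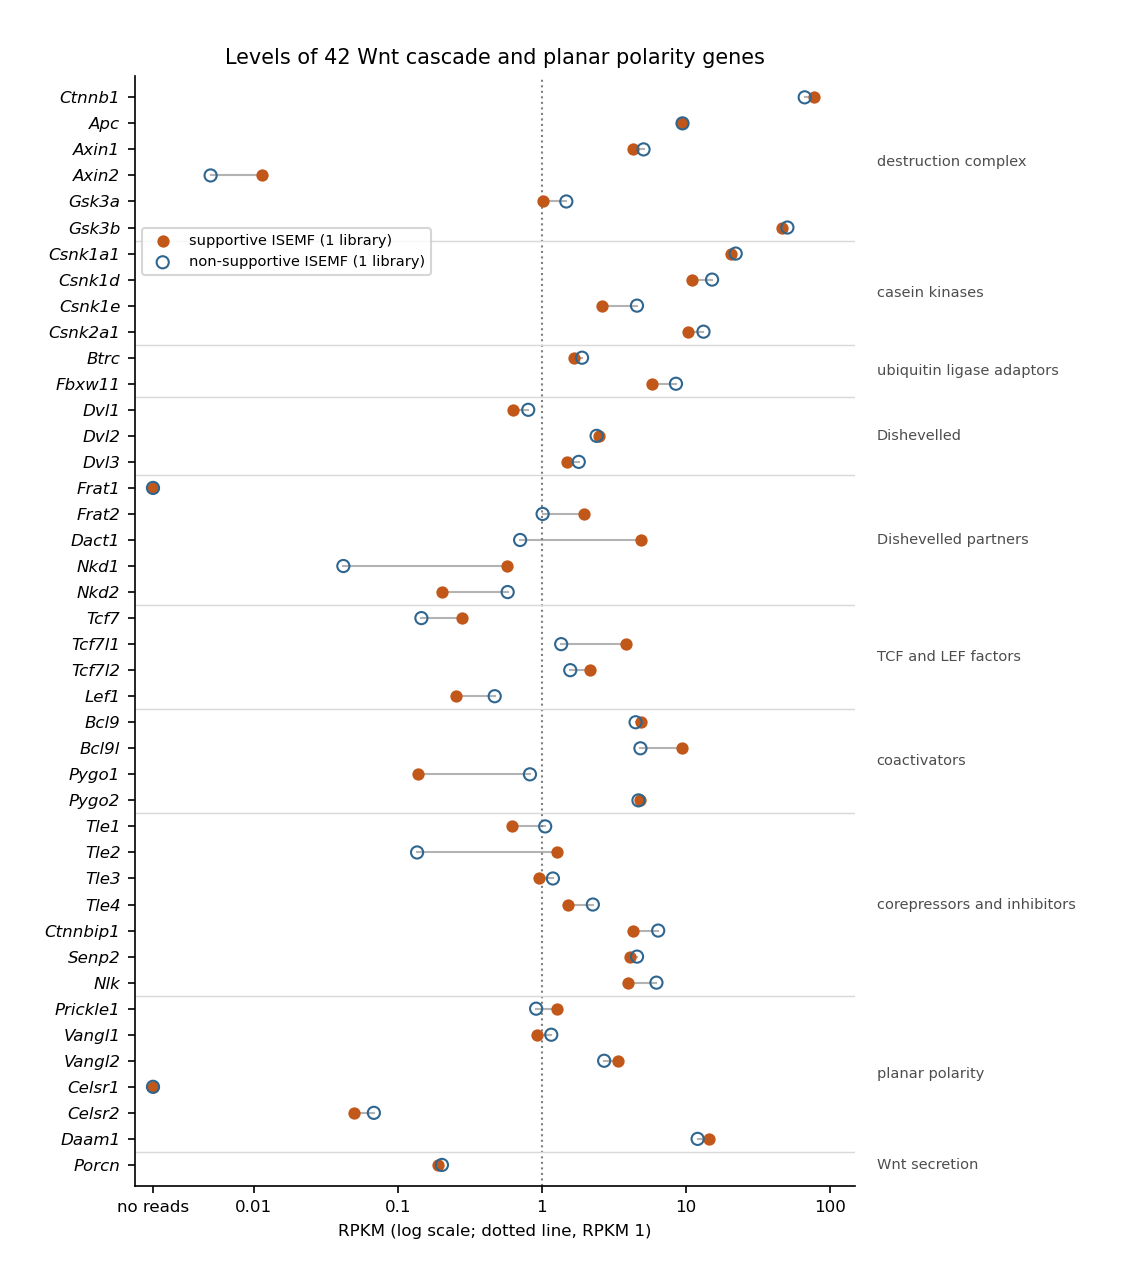
RPKM of the 42 genes on a log scale in the supportive (filled points) and the non-supportive library (open points), grouped by role, with the dotted line at an RPKM of 1 and genes without reads drawn at the left. The points of Ctnnb1, Gsk3b and Apc nearly coincide, whereas those of Dact1, Nkd1, Tle2 and Pygo1 stand apart.

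The bases before the start of the 6 genes past 2-fold are shown because these genes differed most between the libraries. Each run holds the 250 bases that precede the RefSeq gene start on GRCm38.p6, read 5′ to 3′ on the strand of the gene, with CpG dinucleotides in capitals. The first 4 genes were higher and the last 2 were lower in supportive ISEMFs.
Dact1, chr12:71309634-71309883, plus strand: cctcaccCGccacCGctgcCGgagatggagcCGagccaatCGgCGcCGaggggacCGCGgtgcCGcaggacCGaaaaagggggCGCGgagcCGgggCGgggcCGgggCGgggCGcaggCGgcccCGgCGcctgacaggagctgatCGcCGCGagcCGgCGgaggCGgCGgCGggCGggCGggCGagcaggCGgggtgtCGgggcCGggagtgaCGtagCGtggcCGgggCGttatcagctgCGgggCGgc
Tle2, chr10:81575037-81575286, plus strand: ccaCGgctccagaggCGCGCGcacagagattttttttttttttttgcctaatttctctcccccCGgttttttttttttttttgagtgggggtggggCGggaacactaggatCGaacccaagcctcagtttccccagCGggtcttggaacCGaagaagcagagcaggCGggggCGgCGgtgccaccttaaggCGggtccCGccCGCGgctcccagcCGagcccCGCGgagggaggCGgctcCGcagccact
Tcf7l1, chr6:72789046-72789295, minus strand: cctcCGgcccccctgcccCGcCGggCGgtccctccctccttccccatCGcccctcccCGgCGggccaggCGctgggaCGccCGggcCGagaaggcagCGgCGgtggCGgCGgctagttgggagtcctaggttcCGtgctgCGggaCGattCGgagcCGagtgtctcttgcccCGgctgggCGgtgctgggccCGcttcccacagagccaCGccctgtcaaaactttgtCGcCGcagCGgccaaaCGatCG
Nkd1, chr8:88527383-88527632, plus strand: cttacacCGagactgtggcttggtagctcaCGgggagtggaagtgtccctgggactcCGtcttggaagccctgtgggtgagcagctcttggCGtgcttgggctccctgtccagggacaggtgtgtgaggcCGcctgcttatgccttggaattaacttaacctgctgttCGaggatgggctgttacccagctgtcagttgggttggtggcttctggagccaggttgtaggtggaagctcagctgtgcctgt
Nkd2, chr13:73847632-73847881, minus strand: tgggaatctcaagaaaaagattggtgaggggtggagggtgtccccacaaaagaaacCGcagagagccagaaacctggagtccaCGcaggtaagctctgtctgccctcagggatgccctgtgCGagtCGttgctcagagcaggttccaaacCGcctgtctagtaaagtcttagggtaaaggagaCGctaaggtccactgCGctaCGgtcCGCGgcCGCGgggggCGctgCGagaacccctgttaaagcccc
Pygo1, chr9:72925395-72925644, plus strand: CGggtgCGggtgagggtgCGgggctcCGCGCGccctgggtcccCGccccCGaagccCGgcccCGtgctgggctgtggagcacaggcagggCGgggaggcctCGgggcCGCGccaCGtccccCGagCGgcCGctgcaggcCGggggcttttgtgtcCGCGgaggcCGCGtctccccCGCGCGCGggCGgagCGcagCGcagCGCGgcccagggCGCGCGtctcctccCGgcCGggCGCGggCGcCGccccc

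These windows differed widely in CpG content. That of Dact1 and that of Pygo1 each held 41 CpG, although Dact1 was higher and Pygo1 lower in supportive ISEMFs. Tcf7l1 had 29, Tle2 had 21 and Nkd2 had 14, and Nkd1, with 6, had the fewest of the 33 genes that matched a RefSeq promoter. The median over the 33 genes was 24, taking the start with the most CpG for each gene, against 6 for all 27025 genes with a promoter. At least 10 CpG were found for 30 of the 33 genes and for 40.2% of all genes. The 27025 genes were not limited to expressed genes. A comparison with genes of like expression was not made, so the CpG counts cannot be read as a trait of this pathway. Variants of the core that TCF and LEF factors recognise, such as the CTTTGT in the window of Tcf7l1, were not counted. Only the letters CTTTGA, a form of this core, were searched, on both strands. They were present in this window for 4 of the 33 genes (Lef1, Gsk3a, Gsk3b and Daam1), or 12.1%, against 15.8% of all genes, and in none of the 6 windows shown.

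Among the β-catenin gene and the scaffolds and GSK3 kinases that turn its product over, the ratios lay between 0.688 and 1.16 for the 5 genes that reached an RPKM of 1. Ctnnb1, the gene of β-catenin, had 54559 reads (RPKM 78.2) in the supportive library and 45527 reads (RPKM 67.1) in the non-supportive one. It was the most abundant of the 42 genes, at rank 191 and rank 294 among protein-coding genes, and its ratio was 1.16 (95% exact interval, 1.15 to 1.18). Gsk3b, the more abundant of the GSK3 kinases here, had RPKM values of 46.9 and 50.9, a ratio of 0.922 (0.908 to 0.936). Apc was at 9.36 and 9.51, and the interval of its ratio, 0.964 to 1.005, included 1. The scaffold Axin1 was at 4.33 and 5.10, and Gsk3a at 1.02 and 1.48, a ratio of 0.688 (0.574 to 0.822). Exons of 9130221H12Rik on the opposite strand overlap 19.3% of the exon bases of Gsk3a, and that gene had 355 and 417 reads against 213 and 301 for Gsk3a.

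Axin2, the Axin paralog that canonical signaling induces in many tissues, was almost silent. It had 7 reads in supportive and 3 reads in non-supportive ISEMFs, with RPKM values of 0.0114 and 0.00503. The ratio of 2.27 had an interval from 0.518 to 13.6, so no difference was detectable at this depth.

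The 4 casein kinase genes were all lower in supportive ISEMFs, under each scaling tried, and none reached 2-fold. With the deposited library sizes the interval lay below 1 for 46.1% of all genes at or over an RPKM of 1. This direction alone therefore does not set a group of genes apart. Csnk1a1, the kinase that primes β-catenin for GSK3, led them with an RPKM of 20.5 (supportive library) and 22.3 (non-supportive library), from 22933 and 24177 reads, a ratio of 0.922 (0.905 to 0.939). Csnk1d was at 11.04 and 15.3, and Csnk2a1, a catalytic subunit of casein kinase 2, at 10.4 and 13.3. Csnk1e, a kinase of Dishevelled, had the lowest ratio of the 31 genes, 0.576 (0.543 to 0.611), with RPKM values of 2.65 and 4.59. In the annotation, exons of Slc16a3 on the opposite strand overlap 14.2% of the exon bases of Csnk1d, and Slc16a3 had 110 and 1345 reads. Whether the counting used strand is not stated in the sources used here.

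The adaptors that hand phosphorylated β-catenin to the ubiquitin ligase were also lower. Fbxw11 had 4903 reads (RPKM 5.85) in the supportive library and 6973 reads (RPKM 8.56) in the non-supportive library, a ratio of 0.683 (0.659 to 0.709). Its paralog Btrc was at 1.67 and 1.91.

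The Dishevelled genes, which carry the signal from the receptors, differed little. Dvl2 had 1404 reads (RPKM 2.49) in the supportive library and 1318 reads (RPKM 2.41) in the other. Its ratio of 1.04 had an interval from 0.960 to 1.12, so the libraries were not distinguishable at the deposited library sizes. Its log2 ratio, 0.05, lay between 0.09 and 0.12 under the other scalings. Dvl3 was at 1.498 and 1.81, and Dvl1 at 0.628 and 0.807. Exons of Acadvl on the opposite strand overlap 19.7% of the exon bases of Dvl2, and Acadvl had 449 and 448 reads.

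Among the genes that bind Dishevelled, Dact1, Nkd1 and Nkd2 each differed by more than 2-fold. Dact1, an antagonist that binds Dishevelled and lies on chromosome 12 of mm9 from 72410871 to 72421094, had 1912 reads in supportive and 270 reads in non-supportive ISEMFs. The RPKM values were 4.88 and 0.709, which made it 6.88-fold higher in supportive ISEMFs (6.06 to 7.85). Exons of 4930474H06Rik on the opposite strand overlap 34.9% of its exon bases, and that gene had 1 read and 0 reads.

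The Naked genes encode feedback inhibitors that also bind Dishevelled, and they went in opposite directions. Nkd1, on chromosome 8 of mm9 from 91045243 to 91118786, had 182 reads (RPKM 0.571) in supportive ISEMFs and 13 reads (RPKM 0.0420) in non-supportive ISEMFs. It was 13.6-fold higher (7.76 to 26.0). Nkd2, on chromosome 13 from 73955982 to 73985079, had 97 reads (RPKM 0.202) in the supportive library and 271 reads (RPKM 0.581) in the other. It was 2.87-fold lower in supportive ISEMFs (2.27 to 3.66). The more abundant Naked gene thus differed between the libraries. The RPKM of Nkd1 was 2.83 times that of Nkd2 in supportive ISEMFs (2.20 to 3.65) and 0.0723 times in non-supportive ISEMFs (0.0380 to 0.126). All of these levels were below an RPKM of 1.

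Frat2, of a family that binds GSK3, had 301 reads (RPKM 1.95) in the supportive library and 152 reads (RPKM 1.02) in the other. Its ratio of 1.92 had an interval that reached past 2, from 1.58 to 2.35. Frat1 is listed as a pseudogene of 579 bases and had no reads, which at this depth allows an RPKM of up to 0.0725 and 0.0746, the values of 3 reads.

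**Figure D2:**
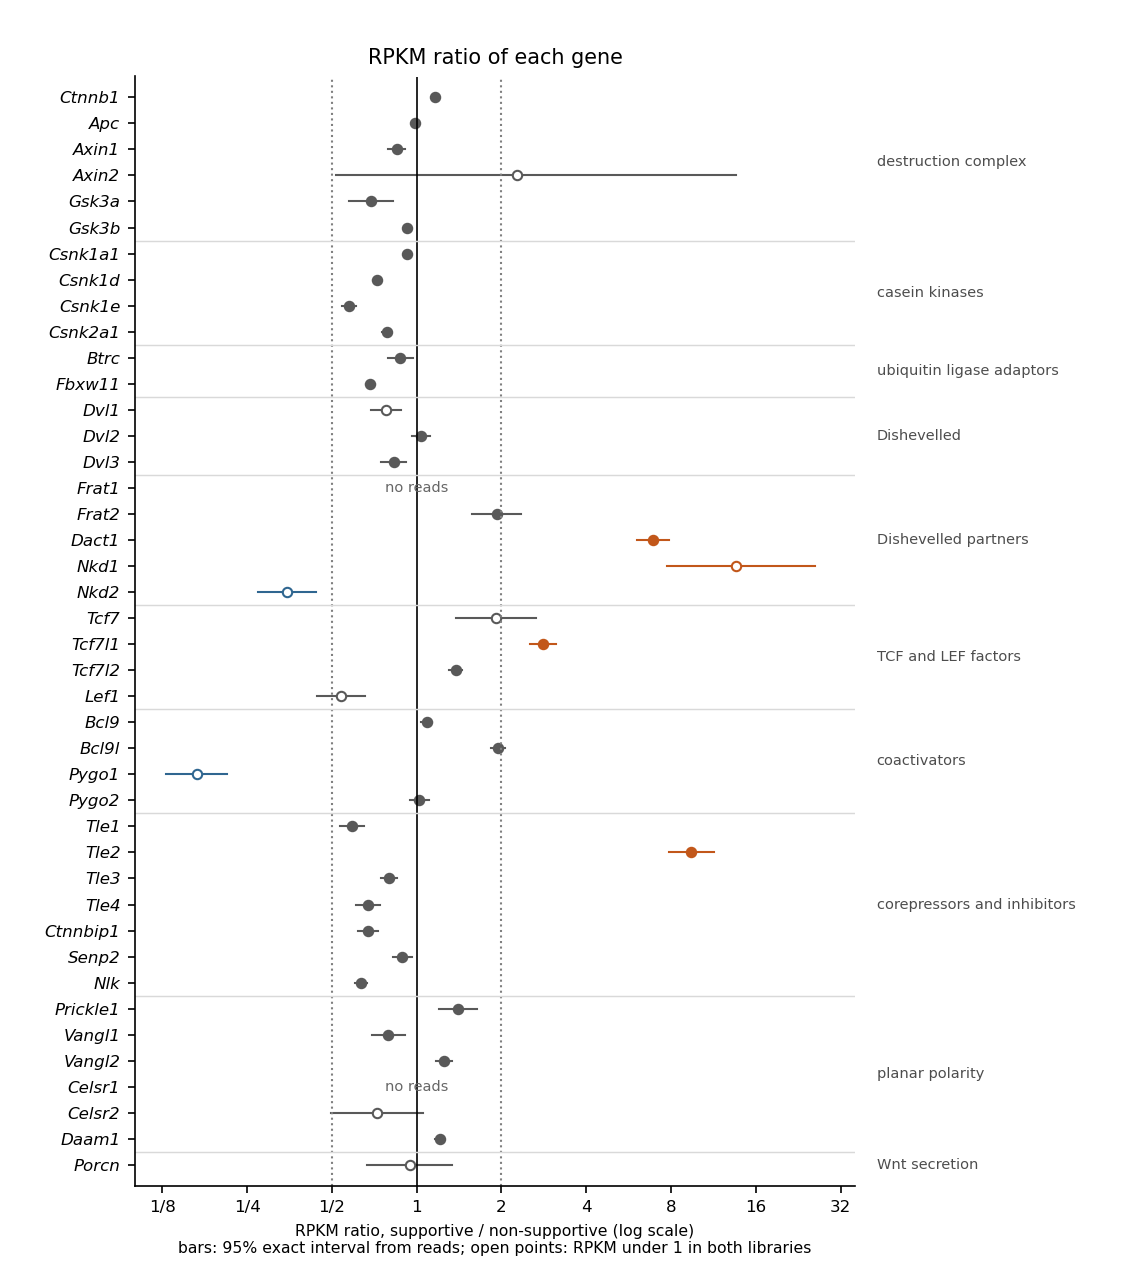
Ratio of RPKM in supportive over non-supportive ISEMFs for each gene on a log scale, with 95% exact intervals from the reads as bars and open points for genes under an RPKM of 1 in both libraries. Orange marks genes at least 2-fold higher and blue those at least 2-fold lower on the scale of RPKM plus 0.1, and most of the other intervals lie between the dotted lines at 2-fold.

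Among the TCF and LEF factors, the summed RPKM was 6.55 (supportive library) and 3.57 (non-supportive library), and Tcf7l1 made most of the difference. Tcf7l1, a factor known mainly as a repressor of Wnt targets, lies on chromosome 6 of mm9 from 72576372 to 72739248. It had 1416 reads (RPKM 3.84) in supportive ISEMFs and 490 reads (RPKM 1.37) in non-supportive ISEMFs, a 2.81-fold difference (2.53 to 3.12). Tcf7l2, the main factor of the gut epithelium, was at 2.17 and 1.58, a ratio of 1.37 (1.30 to 1.45). Tcf7l1 relative to Tcf7l2 was 2.04-fold higher in the supportive library (1.82 to 2.29), a quantity in which gene length cancels. Which gene of the pair was higher within the supportive library depended on the length used, since the ratio of Tcf7l1 to Tcf7l2 there was 1.77 by the deposited lengths and 0.603 by those of the longest coding transcripts.

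Tcf7 and Lef1, the factors best known from lymphocytes, were below an RPKM of 1 and differed in opposite directions. Tcf7 had 116 reads (RPKM 0.279) in the supportive library and 59 reads (RPKM 0.146) in the other, a ratio of 1.91 (1.38 to 2.66). Lef1 had 163 reads (RPKM 0.255) against 293 reads (RPKM 0.472), which was 1.85-fold lower in supportive ISEMFs (1.52 to 2.25). Neither reached 2-fold. Lef1 made 3.90% of the summed RPKM of the 4 factors in supportive and 13.2% in non-supportive ISEMFs.

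Of the coactivators that β-catenin brings to DNA, Bcl9l and Pygo1 differed more between the libraries than their paralogs Bcl9 and Pygo2. Bcl9l, an adaptor between β-catenin and Pygopus, had 3572 reads (RPKM 9.42) in supportive ISEMFs and 1788 reads (RPKM 4.85) in non-supportive ISEMFs. Its ratio of 1.94 (1.83 to 2.06) lay just under 2. Bcl9 was at 4.88 and 4.49, a ratio of 1.09 (1.04 to 1.14), and Bcl9l relative to Bcl9 was 1.79-fold higher in the supportive library (1.66 to 1.92).

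Pygo1, which encodes a reader of methylated histone H3 and lies on chromosome 9 of mm9 from 72773452 to 72799988, had 78 reads (RPKM 0.138) in the supportive library. In the non-supportive library it had 456 reads (RPKM 0.829), so it was 6.02-fold lower in supportive ISEMFs (4.72 to 7.75). Pygo2 was at 4.81 and 4.70, and the interval of its ratio, 0.944 to 1.11, included 1. Pygo2 therefore led the pair in both libraries, by 34.9-fold in the supportive one (27.7 to 44.4) and by 5.67-fold in the other (5.09 to 6.33).

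The Groucho corepressors, which hold TCF targets off, had a summed RPKM of 4.38 (supportive library) and 4.66 (non-supportive library) by the deposited lengths, but of 15.7 and 13.7 by the longest coding transcripts, so which library had the higher sum depended on the length used. Tle2, on chromosome 10 of mm9 from 81037306 to 81053590, had 1266 reads (RPKM 1.28) in supportive ISEMFs and 131 reads (RPKM 0.136) in non-supportive ISEMFs. It was 9.39-fold higher in the supportive library (7.84 to 11.3) and made 29.3% of the family's summed RPKM there, against 2.93% in the other. By the longest coding transcripts the shares were 41.1% and 5.01%. The other family members were each lower in supportive ISEMFs without reaching 2-fold. Tle4 was at 1.52 and 2.27, Tle1 at 0.622 and 1.06, and Tle3 at 0.953 and 1.20. Relative to these paralogs Tle2 was between 11.8-fold (for Tle3) and 15.97-fold (for Tle1) higher in the supportive library. Exons of Gm15917 on the opposite strand overlap 1.58% of the exon bases of Tle2, and that gene had 13 reads in the supportive library and 0 in the other.

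**Figure D3:**
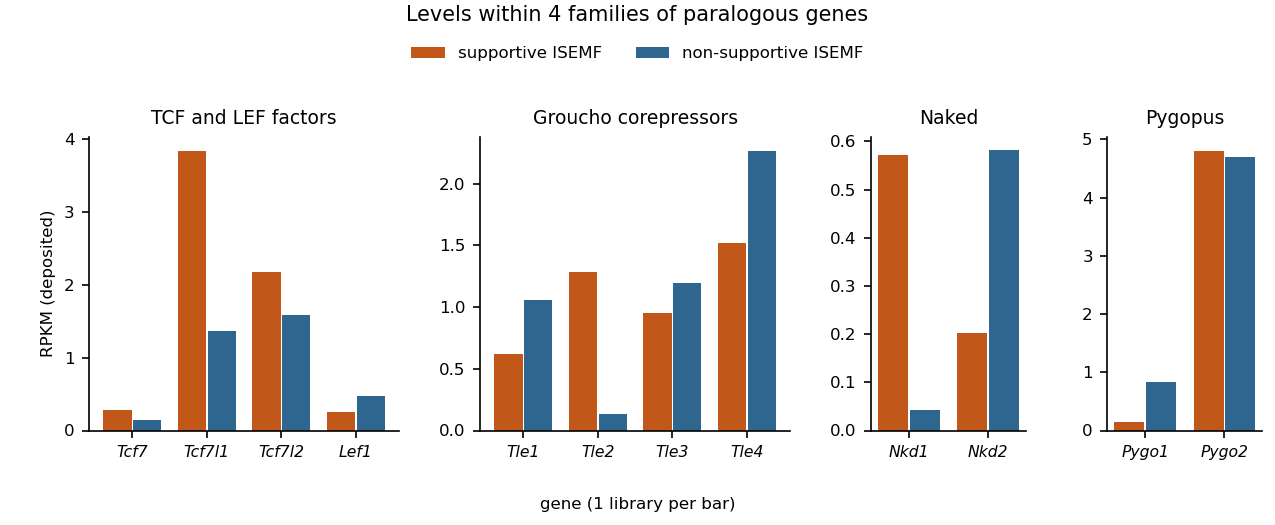
Deposited RPKM (vertical axes, from 0) of the genes of 4 families in the supportive and the non-supportive library, 1 library per bar. Tle2 stands at 1.28 (supportive library) and 0.136 (non-supportive library) while the other Groucho genes are lower in the supportive one, and the higher Naked bar is Nkd1 in the supportive and Nkd2 in the non-supportive library.

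The remaining inhibitors were all lower in supportive ISEMFs, by less than 2-fold. Their intervals lay below 1, as did those of 46.1% of all genes at or over an RPKM of 1. Ctnnbip1, whose product keeps β-catenin from TCF factors, had the highest mean RPKM of this group by the deposited lengths. Its order against Nlk depends on the length used. Ctnnbip1 had 957 reads (RPKM 4.33) in the supportive library and 1386 reads (RPKM 6.45) in the other. Its ratio was 0.671 (0.617 to 0.729). Nlk, a kinase of TCF and LEF factors, was at 3.98 and 6.27, and Senp2, a SUMO protease, at 4.09 and 4.60.

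The planar polarity genes did not differ by 2-fold. Daam1, a formin that links Dishevelled to the actin cytoskeleton, had 6282 reads (RPKM 14.6) in the supportive library and 5050 reads (RPKM 12.1) in the other, a ratio of 1.21 (1.16 to 1.25). Vangl2 was at 3.40 and 2.72, Vangl1 at 0.926 and 1.17, and Prickle1 at 1.28 and 0.916. The atypical cadherins were nearly absent, since Celsr2 had 53 and 71 reads and Celsr1 had none in either library. A Celsr1 level of up to 0.00371 (supportive library) and 0.00382 (non-supportive library), the RPKM of 3 reads, would not have been detectable. Porcn, the enzyme that acylates Wnt ligands for secretion, had 69 and 71 reads and RPKM values of 0.192 and 0.203.

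With the deposited library sizes, the interval of the ratio lay above 1 for 11 of the 31 genes that reached an RPKM of 1. It lay below 1 for 17 and included 1 for Apc, Dvl2 and Pygo2. At this depth such intervals lay above 1 for 36.2%, below 1 for 46.1% and on either side for 82.3% of all genes at or over an RPKM of 1. By mean RPKM of the libraries, none of the 15 genes above the median level of the 31 reached 2-fold, against 3 of the 16 at or below it. Of these 3, Tle2 and Dact1 reached an RPKM of 1 only in the supportive library. They therefore had to differ, and their lower value in the other library reduced the mean that placed them. The split thus cannot show that larger differences go with lower abundance. The same limit holds for the background, which was selected by the same rule. Of all 5550 genes above that level, 366 were 2-fold higher and 436 were 2-fold lower in supportive ISEMFs, against 543 and 499 of the 4536 genes at or below it.

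Of the 42 genes, 13 are also rows of the deposited table of 209 Wnt pathway genes, namely Ctnnb1, Apc, Axin1, Axin2, Gsk3a, Gsk3b, Btrc, the 3 Dishevelled genes, Tcf7, Lef1 and Porcn. None of the 6 genes past 2-fold is among them. Only 8 of the 13 reached an RPKM of 1, and 18.3% of all genes at such levels were past 2-fold in either direction. With so few genes, the lack of overlap says little about the deposited table. These 8 genes had a median absolute log2 ratio of 0.20. The 23 such genes that the deposited table leaves out, which include Tle2 and Dact1, had one of 0.46, beside 0.42 for all genes.

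A further list of 50 genes of Wnt secretion, the cytoplasm, the nucleus and planar polarity was also examined. Of these, 37 had an RPKM of at least 1, with a median absolute log2 ratio of 0.43. In supportive ISEMFs 2 of the 37 (5.41%) were 2-fold higher and 0 were 2-fold lower, beside 9.01% and 9.27% of all genes. The higher genes were Daam2, a paralog of Daam1, with RPKM values of 3.36 and 1.04, and Tbl1xr1, a subunit of nuclear corepressor complexes, with 15.9 and 6.45. Wls, the carrier of Wnt ligands to the cell surface, was at 64.6 and 42.4, far above Porcn.

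Of a list of 30 genes that canonical Wnt signaling is known to induce in various tissues, which holds the members Axin2, Nkd1, Lef1 and Tcf7, 12 had an RPKM of at least 1. Of these, 5 (41.7%) were 2-fold higher and 3 (25.0%) were 2-fold lower in supportive ISEMFs, beside 9.01% and 9.27% of all genes, and their median absolute log2 ratio was 1.61. Of these 8 genes, 5 (Lgr5, Ephb3, Wisp2, Apcdd1 and Tbx3) reached an RPKM of 1 only in the library where they were higher, so they had to differ and the counts lend no support to a difference between the lists. With no minimum RPKM, 7 of all 30 were 2-fold higher and 5 were 2-fold lower. The shares of all 37309 genes were then 4.76% and 5.05%, a background that includes genes without reads. Lgr5 had 6702 reads (RPKM 7.22) in the supportive library and 4 reads (RPKM 0.00443) in the other. Ephb3, an ephrin receptor, was at 2.73 and 0.353, and Wisp1 at 67.8 and 29.9, and the other higher genes were Bmp4 at 35.6 and 2.12 and Wisp2 at 19.01 and 0.613. The lower genes were Cd44 at 12.96 and 71.9, Apcdd1 at 0.274 and 1.35, and Tbx3 at 0.616 and 1.62. Ccnd1 was nearly level at 175 and 146, and Sp5, Mmp7 and Cdx1 had no reads. Several genes of this list are targets in epithelium, and all were chosen with earlier results of these data known. The plot of log2 ratios sets the 3 lists beside all genes.

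**Figure D4:**
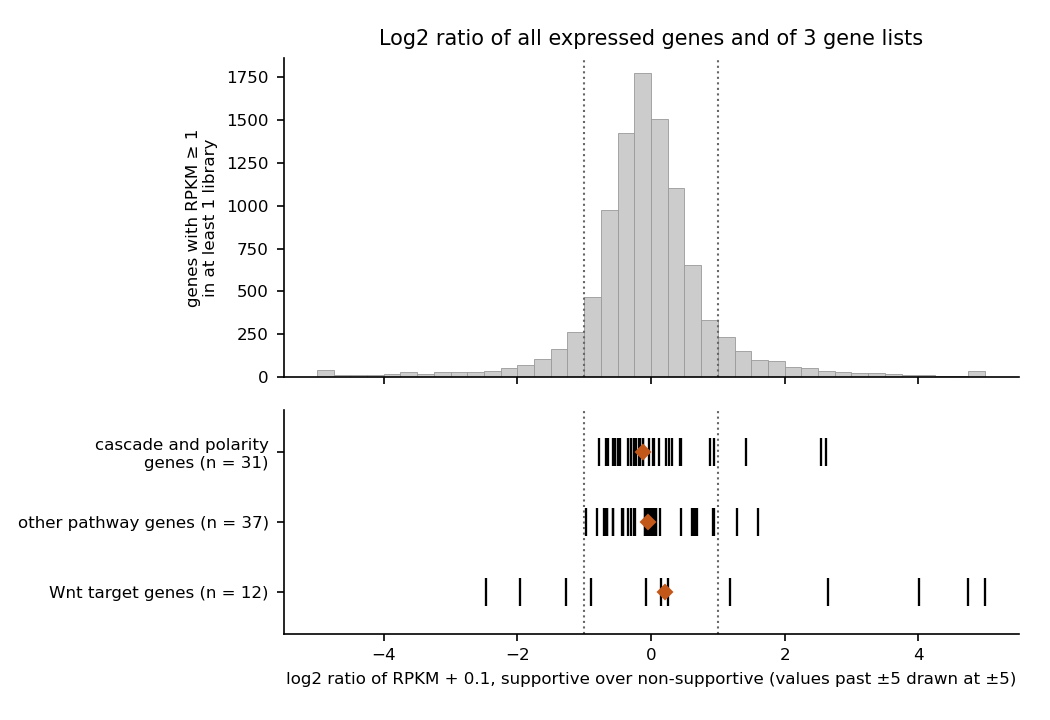
Upper panel, number of genes that reached an RPKM of 1 in either library by log2 ratio of RPKM plus 0.1 (supportive over non-supportive ISEMFs, bins of 0.25); lower panel, the same ratio for each expressed gene of 3 lists, with the median as a diamond. The cascade and polarity genes lie between the dotted lines at 2-fold except for Tle2, Dact1 and Tcf7l1, and the 12 target genes include 5 that reached an RPKM of 1 only in the library where they were higher.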

How the data were processed

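Libraries were made with the TruSeq RNA kit from mRNA purified out of total RNA and sequenced as single reads on an Illumina instrument. The authors aligned the reads to mm9 with TopHat (TopHat2 2.0.4 in the submitters' processing notes), kept unique hits and counted reads per Ensembl gene with HTSeq 0.5.4p3, leaving out reads that did not fall on exactly 1 gene. The deposited table holds these counts, which are whole numbers, and RPKM values that the authors made from each count, the union of exon lengths and a library size of 71463423 (supportive) or 69449374 (non-supportive). It also holds the authors' own comparison, a deposited log2 ratio and DESeq p-values, which was not used. Whether counting used strand and which Ensembl release was used are not given in the sources used here.

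With 1 library per group no test across genes was possible, so edgeR's quasi-likelihood test had no residual degrees of freedom and no p-value was computed. A gene was called 2-fold higher or lower from the log2 ratio of RPKM plus 0.1, where either library reached an RPKM of 1. Below that, genes with at least 50 reads over both libraries were treated as a separate class. Exact 95% Clopper-Pearson intervals of ratios came from the reads and cover counting error only, since reads without molecular identifiers are not independent molecules. A count of 0 was given with the RPKM of 3 reads. Alternatives were edgeR 4.0.16 TMM factors and DESeq2 1.42.0 size factors (scaling only, R 4.3.3), rescaling to a median log2 ratio of 0, pseudocounts of 1 and 0.001, minimum RPKM values of 5 and 0, at least 10 reads, and 4-fold in place of 2-fold. The other steps ran in Python 3.11.15 with pandas 2.3.3, numpy 2.4.6, scipy 1.17.1 and matplotlib 3.10.9, and were tested on simulated data.

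All 42 genes were accounted for by role, and given in full were those past 2-fold in either class and the gene with the highest mean RPKM of each role. Of the 2 further lists, up to 5 genes in each direction past 2-fold were to be named, and other genes named were chosen after their values were seen. The 42 genes and all lists were chosen with earlier results of these data known. Gene positions and exon overlaps are from GENCODE vM1 (mm9), in which all 42 genes were found, 13 of them with exons that another gene overlaps. The deposited length matched the annotation's exon union for 9 of the 42, so levels are compared between genes with the longest coding transcript as an alternative. Promoters are from RefSeq (GRCm38.p6).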

Additional observations from a re-analysis of the deposited data

How the results depend on the processing

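No paired analysis was possible because each group has 1 library, and for the same reason no replicate could be left out. Of the 42 genes, the number 2-fold higher in supportive ISEMFs, 3, was 0 of 12 with a minimum RPKM of 5. The number 2-fold lower, 0, was 2 of 42 with no minimum RPKM and 2 of 40 with at least 10 reads (Nkd2 and Pygo1). Over all genes, the 909 higher and 935 lower of 10086 (9.01% and 9.27%) were 578 and 621 (5.73% and 6.16%) with a pseudocount of 1. They were 412 and 466 of 5061 (8.14% and 9.21%) with a minimum RPKM of 5. With no minimum they were 1775 and 1885 of 37309 (4.76% and 5.05%). With at least 10 reads they were 1443 and 1589 of 16438 (8.78% and 9.67%), and at 4-fold 327 and 332 of 10086 (3.24% and 3.29%). The 2 higher of 37 genes in the further pathway list were 1 of 27 with a minimum of 5 and 0 of 37 at 4-fold. The 3 lower of 12 target genes were 1 of 12 with a pseudocount of 1 and at 4-fold. They were 1 of 8 with a minimum of 5, and 5 of 30 with no minimum.

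Of 36 alternative log2 ratios for the 6 genes past 2-fold, 33 kept their direction and stayed past 2-fold. The exceptions were with a pseudocount of 1, at 0.59 for Nkd1, -0.40 for Nkd2 and -0.69 for Pygo1. With the median log2 ratio of all genes set to 0, and with mitochondrial ribosomal RNA left out of the library size (chosen after seeing the data), Bcl9l also passed 2-fold, at 1.02 and 1.01. Apc, at -0.02, lay between 0.02 and 0.05 under the other scalings.

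Between genes, levels depend on length. With the longest coding transcript (chosen after seeing the data), the order within a library reversed for several pairs. In the supportive library Tcf7l1 over Tcf7l2 went from 1.77 to 0.603, Tle2 over Tle4 from 0.842 to 3.02, Tle3 over Tle4 from 0.626 to 2.35, and Dvl2 over Dvl3 from 1.66 to 0.971. In the non-supportive library Tle3 over Tle4 went from 0.528 to 1.98, Tle1 over Tle4 from 0.467 to 1.12, Bcl9l over Bcl9 from 1.08 to 0.586, and Dvl2 over Dvl3 from 1.33 to 0.776. The ratios of a gene between the libraries do not depend on length. Genes with few reads, such as Axin2, Celsr2 and Porcn, had intervals too wide to show a difference at this depth.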

Other observations

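Paralogs of the genes above that were not among the 42 differed in both directions, and they are named here after their values were seen. Prickle2, a polarity gene like Prickle1, had RPKM values of 3.48 (supportive) and 1.77 (non-supportive), a ratio of 1.97 (95% exact interval, 1.88 to 2.06). Dact3, of the same family as Dact1, was at 2.30 and 1.16, a ratio of 1.98, whereas Dact2 had 2 and 5 reads. Tle6, a divergent Groucho relative, had 358 reads and an RPKM of 0.810 against 99 reads and an RPKM of 0.231, a ratio of 3.51. Prickle3 was at 0.415 and 0.160, a ratio of 2.59 (1.98 to 3.41). The ratios of Prickle2 and Dact3 lay just under 2-fold. Of the casein kinase paralogs, Csnk1g2 was higher in supportive ISEMFs, at 7.86 and 4.85, and Csnk1g1 (ratio 0.613), Csnk2a2 (0.668) and Csnk1g3 (0.815) were lower. Jup, which encodes plakoglobin, a relative of β-catenin, had a ratio of 0.555. The intervals for Aes (0.903 to 1.04) and Celsr3 (0.581 to 2.20) included 1, and Apc2 was at 0.269 and 0.177.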
